A study of Homo sapiens with 6 samples.

Results

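The genes described here are 9 enzymes that make or interconvert asparagine, glutamine, glutamate, aspartate, alanine, arginine and proline. They were chosen by symbol, as ASNS, GPT2, GLUL, GLUD1, GOT1, GOT2, ASS1, ALDH18A1 and PYCR1, and all 9 were found among the 38167 genes of the count table. The cells were Cal27, an established line from a human squamous cell carcinoma of the tongue. They grew as spheroids by liquid overlay in Matrigel, a gelled basement membrane extract, at 12 mg/mL (stiff) or 3 mg/mL (soft), and RNA was taken on day 14 from 3 libraries of each condition. Both conditions shared the cell line, the culture format, the harvest day and poly(A) selection, and the comparison asks how matrix stiffness alters expression in oral carcinoma spheroids. The Matrigel dose sets stiffness and matrix ligand together, so their effects cannot be told apart. The labels call the libraries biological replicates without saying that they came from separate cultures, so a p-value here covers only the spread among these libraries, which may be technical.

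Glutamate stands at the centre of these reactions. Glutamine synthetase adds ammonia to it, glutamate dehydrogenase removes its nitrogen, and aminotransferases pass that nitrogen to oxaloacetate or pyruvate, which gives aspartate or alanine. Glutamine then donates the amide of asparagine, aspartate donates a nitrogen to arginine, and the carbon skeleton of glutamate gives proline. In human and mouse cells short of amino acids, the kinase GCN2 raises translation of the transcription factor ATF4, and ASNS, GPT2, PYCR1 and ALDH18A1 are known ATF4 targets.

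ASNS carries a well-studied element for this response, and the letters TGATGNAA, the core of the C/EBP-ATF element, were therefore looked for on both strands of RefSeq promoter windows (GRCh38.p14, 250 bases before to 50 bases after each gene start). The windows of ASNS and GOT1 held them, of the 7 member enzymes with a window, and 1217 of 27305 genes with a window held them (4.46%). Both stretches are shown 5′ to 3′ on the gene's strand, the minus strand in each, with 30 bases on either side of the match in capitals. The ASNS stretch is chr7:97872439-97872506 and its match begins 68 bases before the listed start, which lies inside the annotated span of the gene. The GOT1 stretch is chr10:99430785-99430852, its match is on the opposite strand, and it begins 198 bases before the start.
ASNS: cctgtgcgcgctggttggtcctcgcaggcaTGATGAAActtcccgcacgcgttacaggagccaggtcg
GOT1: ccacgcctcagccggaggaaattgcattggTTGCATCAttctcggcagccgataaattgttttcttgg
A match of letters is not a binding site, and the genes with one changed very differently, as described next: ASNS had the largest fold change of the 9 and GOT1 the smallest. The windows of GLUL, GLUD1, GOT2, ASS1 and ALDH18A1 did not hold these letters, and GPT2 and PYCR1 were not looked at.

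Libraries held 35292340 to 36594685 counted fragments in stiff and 30656278 to 40583044 in soft. Levels are given as CPM, a gene's fragments relative to the TMM-scaled size of its library. All 10 squamous epithelial markers were measurable, and their summed level was 19964 to 21176 CPM in stiff against 6731 to 7349 CPM in soft; 7 of them were higher in stiff and 2, EPCAM and CDH1, were lower. Markers of other cells summed to far less. Even so, the fibroblast and leukocyte sums exceeded the levels of GPT2, PYCR1 and GOT1 given below in both conditions. In stiff they also exceeded ASNS and ALDH18A1. The leukocyte sum further exceeded GOT2 in stiff and ALDH18A1 in soft, and it overlapped ASNS in soft. The largest single markers of these cells were COL1A1 (82.6 CPM in stiff, 71.8 CPM in soft) and CD68 (100.7 CPM in stiff, 55.8 CPM in soft). Fibroblast markers (4 of 8 tested, 2 higher) summed to 99.3 to 106.0 CPM in stiff against 72.9 to 80.4 CPM in soft, with THY1 at 0 in every library, and leukocyte markers (5 of 7 tested, 3 higher and 1 lower) to 138 to 152 CPM against 106 to 115 CPM, with PTPRC below the filter on low counts. Endothelial markers (4 of 6 tested, 1 higher and 1 lower) summed to 7.62 to 10.1 CPM in stiff against 14.8 to 17.6 CPM in soft. The lower one was CDH5, at 0.552 CPM in stiff and 10.45 CPM in soft, and the higher one was VWF, at 3.22 CPM and 1.58 CPM. Hepatocyte markers, from a cell type rich in urea cycle enzymes, summed to 0.721 to 1.10 CPM in stiff against 0.481 to 0.836 CPM in soft, with OTC at 0 in every library. The part of these shifts in the enzyme results was not tested. The second principal component (10.8% of the variance) set stiff replicate 2 apart from the other stiff libraries. Some values that depend on it are marked where they stand, and ranges of counts with each library left out are given at the end.

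Of the 9 enzymes, 7 fell in stiff Matrigel, 1 rose and 1 did not pass the test (edgeR's quasi-likelihood test on counts, Benjamini-Hochberg adjusted p under 0.05 over 18676 genes). ASNS fell 8.07-fold, GPT2 6.49-fold and PYCR1 2.85-fold. ASS1, ALDH18A1, GLUL and GOT2 fell 1.67-fold or less, GLUD1 rose 1.27-fold, and GOT1 did not pass. Among all genes tested, 23.8% fell and 25.3% rose, or 49.1% in either direction, and 5.62% fell at least 2-fold, as 3 of the 9 enzymes did, while 7.6% rose at least 2-fold, as none of the enzymes did. The median log2 fold change of the enzymes, stiff over soft, was -0.50, against 0.00 over all genes (-0.0002). The members, and the lists below, were chosen with earlier results of these data known. Their difference from all genes is therefore not independent evidence. In 8 of the 9 enzymes the stiff and soft values did not overlap, which was so for 59.9% of all genes tested (29.6% with stiff below soft, as for 7 enzymes, and 30.3% with stiff above, as for 1). The 9 enzymes together made up 2396 to 2539 CPM in stiff and 3387 to 3661 CPM in soft. In such bulk samples, fewer cells of a type and less RNA per cell cannot be told apart.

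**Figure D1:**
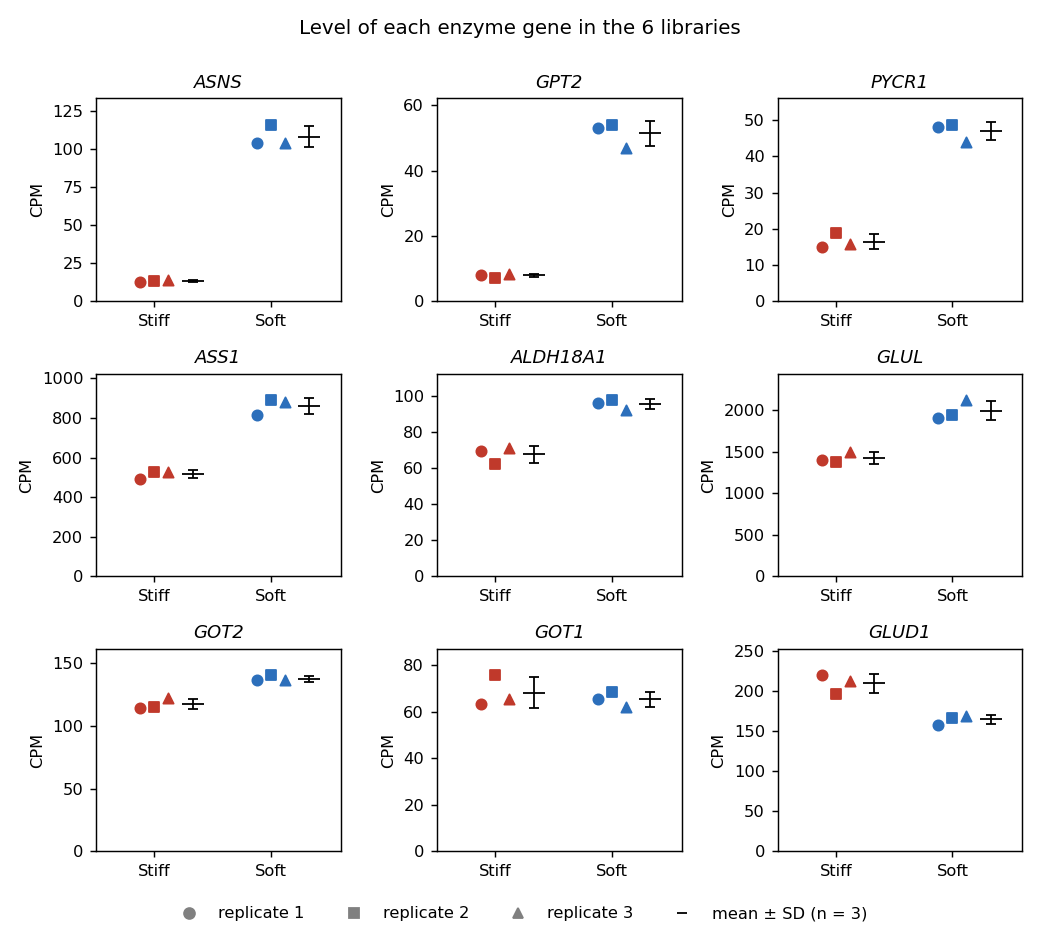
Level in CPM (linear axes from 0, a separate scale per gene) of each of the 9 enzyme genes in the 3 stiff and 3 soft libraries, with a marker shape per replicate number and the mean ± SD (n = 3) beside the points. The stiff points lie below the soft points for 7 genes, above them for GLUD1 and among them for GOT1.

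ASNS (asparagine synthetase, Entrez 440, chromosome 7, 97851677 to 97928441) makes asparagine from aspartate with the amide of glutamine. Its level was 12.8, 13.3 and 14.1 CPM in stiff replicates 1, 2 and 3 and 104.3, 116.0 and 104.4 CPM in soft replicates 1, 2 and 3. Every stiff library was far below every soft library. The means were 13.4 ± 0.664 CPM in stiff and 108.2 ± 6.71 CPM in soft (SD, n = 3 each), a log2 fold change of -3.01 (SE 0.0821, 95% interval -3.20 to -2.83, edgeR adjusted p = 1.84e-08). Ranked by log2 fold change from the lowest, ASNS stood at place 62 of the 18676 genes tested.

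A readthrough transcript listed as CZ1P-ASNS covers ASNS, and its counts followed those of ASNS so closely that most of the same fragments appear to stand in both rows. It had 494, 541 and 574 fragments in stiff and 4358, 3975 and 3259 in soft, against 440, 476 and 508 in stiff and 4333, 3956 and 3246 in soft for ASNS. ASNS counts were thus 88.0% to 89.1% of the readthrough row in stiff and 99.4% to 99.6% in soft. What the readthrough row held beyond ASNS was 54, 65 and 66 fragments in stiff and 25, 19 and 13 in soft, so that remainder was higher in stiff while the shared part was lower. In GENCODE release 29, 44.6% of the ASNS exons are also covered on the same strand by the transcript AC079781.5, which was not used here, so the ASNS row cannot be split between the transcripts that share its exons. The processed pseudogene ASNSP1 had 0 to 1 fragments per library.

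Among the other aspartate and asparagine genes, ASPG, whose product is an asparaginase, was higher, at 8.62 ± 1.10 CPM in stiff and 2.18 ± 0.0817 CPM in soft (3.96-fold, edgeR adjusted p = 3.5e-06), and ADSS1, an adenylosuccinate synthase that consumes aspartate, was 2.42-fold higher (21.8 ± 0.813 CPM in stiff, 9.04 ± 0.862 CPM in soft, edgeR adjusted p = 5.06e-06). NARS1, which charges asparagine onto its tRNA, was lower, at 89.0 ± 0.927 CPM in stiff and 141.8 ± 3.39 CPM in soft (1.59-fold, edgeR adjusted p = 1.6e-05). SLC25A13, a mitochondrial carrier that exchanges aspartate for glutamate, was 1.91-fold lower (21.9 ± 1.43 CPM in stiff, 41.7 ± 1.07 CPM in soft, edgeR adjusted p = 9.05e-06). Of the 20 tested genes of the aspartate and asparagine list, 13 fell, 3 rose, ASPG and ADSS1 among them, and 4 did not pass; the median log2 fold change was -0.30. Without the member enzymes, 10 of 16 fell and 3 rose, beside 23.8% and 25.3% of all genes tested.

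GPT2 (Entrez 84706, chromosome 16, 46884362 to 46931289) is the mitochondrial alanine aminotransferase, which moves the amino group of glutamate to pyruvate. It was measured at 8.12, 7.29 and 8.34 CPM in stiff replicates 1, 2 and 3 and at 53.2, 54.0 and 47.0 CPM in soft replicates 1, 2 and 3. Again no stiff library came near a soft one. The means were 7.92 ± 0.556 CPM in stiff and 51.4 ± 3.802 CPM in soft (SD, n = 3 each), with a log2 fold change of -2.70 (SE 0.0948, 95% interval -2.91 to -2.49, edgeR adjusted p = 5.52e-08), place 98 from the lowest. The cytosolic isozyme GPT was scarce and did not pass the test, at 6.20, 3.42 and 5.13 CPM in stiff and 4.31, 4.22 and 5.40 CPM in soft (log2 fold change 0.09, 95% interval -0.38 to 0.55, edgeR adjusted p = 0.757). The ratio of GPT2 to GPT, each per kilobase of transcript, was 0.583, 0.950 and 0.725 in stiff and 5.50, 5.70 and 3.88 in soft. Per kilobase of the longest transcript, GPT2 was therefore below GPT in every stiff library and above GPT in every soft library. The deposited TPM in stiff replicates 1, 2 and 3 were 2.8, 2.3 and 2.9 for GPT2 and 2.9, 1.4 and 2.4 for GPT. These TPM follow lengths that grow with the number of transcripts and were not used for levels between genes. By merged exons the mean ratio of GPT2 to GPT was 0.733 in stiff and 4.89 in soft, the same order as by the longest transcript.

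Glutamine is made by GLUL (glutamine synthetase, Entrez 2752, chromosome 1, 182378098 to 182391790), which with ASS1 was the most abundant of the 9 per length. Its level was 1400, 1378 and 1503 CPM in stiff replicates 1, 2 and 3, against 1911, 1948 and 2126 CPM in soft replicates 1, 2 and 3. The groups did not overlap, and the lowest soft library exceeded the highest stiff library by more than the spread within either group. Mean levels were 1427 ± 66.7 CPM in stiff and 1995 ± 115 CPM in soft (SD, n = 3 each), 1.40-fold lower in stiff (log2 fold change -0.48, SE 0.071, edgeR adjusted p = 0.000351).

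GLUD1 (Entrez 2746, chromosome 10, 87050202 to 87094843), mitochondrial glutamate dehydrogenase, was the member that rose. Its level was 219.7, 196.5 and 212.5 CPM in stiff replicates 1, 2 and 3 and 157.6, 166.6 and 169.0 CPM in soft replicates 1, 2 and 3. The lowest stiff library stood above the highest soft library. Means of 209.6 ± 11.8 CPM in stiff and 164.4 ± 5.997 CPM in soft (SD, n = 3 each) gave a log2 fold change of 0.35 (SE 0.069, 95% interval 0.20 to 0.50, edgeR adjusted p = 0.0021). The rise did not pass with limma on log2(TPM + 1), where adjusted p was 0.0762, nor with limma on log2(TPM + 0.1), where it was 0.0786, nor with limma on log2(TPM + 1) without the filter on low values, where it was 0.114. GLUD2, a near-identical intronless copy, had 1337 to 1952 fragments per library and can share reads with GLUD1. Its level was 56.0, 37.5 and 51.7 CPM in stiff and 47.0, 44.9 and 48.6 CPM in soft (edgeR adjusted p = 0.782), stiff replicate 2 being the lowest of the 6; without that library the log2 fold change of GLUD2 was 0.20 (edgeR adjusted p = 0.00912). Summed over both genes, the level was 275.7, 234.0 and 264.2 CPM in stiff and 204.6, 211.5 and 217.6 CPM in soft, with a log2 fold change of 0.29 (edgeR adjusted p = 0.00992). SHLD2, on the opposite strand, covers 13.2% of the GLUD1 exons and had 846 to 1113 fragments in stiff and 1044 to 1346 in soft. The strand setting of the counting is not given in the sources used here, so the 2 genes may share fragments.

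Among the 25 tested genes of the glutamine and glutamate list, 11 fell, 4 rose, GLUD1, GFPT2 and BCAT2 among them, and 10 did not pass; the median log2 fold change was -0.135. Without the members, 9 of 22 fell and 3 rose, beside 23.8% and 25.3% of all genes tested. The count of higher genes in the full list was 2 without soft replicate 1, 2 without soft replicate 3 and 6 without stiff replicate 2. PSAT1, the aminotransferase of serine synthesis that draws on glutamate, had the smallest p and fell to 22.7 ± 2.09 CPM in stiff, against 273.7 ± 25.9 CPM in soft (12.0-fold, edgeR adjusted p = 1.84e-08). BCAT1, the cytosolic branched-chain aminotransferase, fell to 6.20 ± 0.254 CPM in stiff, against 48.9 ± 3.88 CPM in soft (7.89-fold, edgeR adjusted p = 2.97e-08). The glutamine users GFPT1, of hexosamine synthesis (91.2 ± 2.42 CPM in stiff, 158.4 ± 6.78 CPM in soft), and CTPS1, of CTP synthesis (16.2 ± 0.845 CPM in stiff, 31.3 ± 1.48 CPM in soft), were 1.74-fold and 1.93-fold lower (edgeR adjusted p = 7.79e-06 and 1.13e-05).

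The aspartate aminotransferases did not move together. GOT2 (Entrez 2806, chromosome 16, 58707131 to 58734316), the mitochondrial enzyme, was at 114.4, 115.1 and 122.2 CPM in stiff replicates 1, 2 and 3 and at 136.1, 140.2 and 136.0 CPM in soft replicates 1, 2 and 3. The groups did not overlap, but the gap was small. Means were 117.2 ± 4.28 CPM in stiff and 137.4 ± 2.41 CPM in soft (SD, n = 3 each), 1.17-fold lower in stiff (log2 fold change -0.23, SE 0.0632, edgeR adjusted p = 0.0127). The call was lost without stiff replicate 1 (edgeR adjusted p = 0.0514) and without soft replicate 2 (edgeR adjusted p = 0.055).

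GOT1 (Entrez 2805, chromosome 10, 99396870 to 99430624), the cytosolic enzyme, was at 63.6, 75.8 and 65.5 CPM in stiff replicates 1, 2 and 3 and at 65.7, 68.6 and 62.0 CPM in soft replicates 1, 2 and 3. The groups overlapped, and stiff replicate 2 was the highest of the 6 libraries. With means of 68.3 ± 6.57 CPM in stiff and 65.4 ± 3.31 CPM in soft (SD, n = 3 each), the log2 fold change was 0.06 with a 95% interval of -0.12 to 0.25 (edgeR adjusted p = 0.563), and it was -0.02 without stiff replicate 2. AL391684.1, an antisense transcript not used here, covers 19.3% of the GOT1 exons. The per-length ratio of GOT1 to GOT2 was 0.468, 0.555 and 0.452 in stiff and 0.406, 0.412 and 0.384 in soft. By this length GOT2 was the more abundant isozyme in every library, and less so in stiff. By deposited TPM, GOT1 was instead above GOT2 in every library. GOT1 had 131.1 to 141.7 TPM in stiff and 132.5 to 147.2 in soft, and GOT2 had 90.3 to 105.9 and 122.1 to 128.0. The deposited TPM follow lengths that grow with the number of transcripts, as described below, and were not used for levels between genes. By merged exons the mean ratio of GOT1 to GOT2 was 0.652 in stiff and 0.532 in soft, so GOT2 was again the more abundant.

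ASS1 (argininosuccinate synthase, Entrez 445, chromosome 9, 130444707 to 130501274) joins aspartate to citrulline on the way to arginine. Its level was 491.8, 529.1 and 526.2 CPM in stiff replicates 1, 2 and 3, against 814.4, 890.8 and 879.2 CPM in soft replicates 1, 2 and 3. All stiff libraries were below all soft libraries. The means of 515.7 ± 20.7 CPM in stiff and 861.5 ± 41.2 CPM in soft (SD, n = 3 each) differed 1.67-fold (log2 fold change -0.74, SE 0.068, edgeR adjusted p = 1.61e-05). ASL, which releases arginine in the next step, was 1.32-fold lower, at 16.8, 19.9 and 16.6 CPM in stiff and 24.9, 24.03 and 21.6 CPM in soft (edgeR adjusted p = 0.00753). The per-length ratio of ASS1 to ASL was 31.7, 28.8 and 34.4 in stiff and 35.5, 40.3 and 44.3 in soft. CPS1 did not pass and OTC had no fragment in any library, so of the urea cycle steps before ASS1 neither was called.

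Proline is made from glutamate by ALDH18A1, which forms pyrroline-5-carboxylate, and a reductase such as PYCR1. ALDH18A1 (Entrez 5832, chromosome 10, 95605941 to 95656711) was at 69.8, 62.6 and 71.2 CPM in stiff replicates 1, 2 and 3 and at 96.5, 97.98 and 92.6 CPM in soft replicates 1, 2 and 3. The groups did not overlap. The means of 67.9 ± 4.65 CPM in stiff and 95.7 ± 2.78 CPM in soft (SD, n = 3 each) gave a log2 fold change of -0.50 (SE 0.0728, edgeR adjusted p = 0.000353).

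PYCR1 (mitochondrial pyrroline-5-carboxylate reductase, Entrez 5831, chromosome 17, 81932391 to 81937300) was at 15.0, 18.8 and 15.7 CPM in stiff replicates 1, 2 and 3 and at 48.2, 48.7 and 44.1 CPM in soft replicates 1, 2 and 3. Stiff replicate 2 was the highest stiff library and still far below every soft library. Its means were 16.5 ± 2.00 CPM in stiff and 47.0 ± 2.54 CPM in soft (SD, n = 3 each), with a log2 fold change of -1.51 (SE 0.0985, 95% interval -1.73 to -1.29, edgeR adjusted p = 1.73e-06), place 493 from the lowest. AC145207.4, on the opposite strand and not used here, covers 15.6% of the PYCR1 exons, and MYADML2, on the same strand, covers 14.1% but had 1 to 2 fragments in stiff and 5 to 6 in soft.

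The cytosolic reductase PYCR3 was 1.82-fold lower, at 5.80, 6.33 and 5.38 CPM in stiff and 11.3, 11.9 and 8.59 CPM in soft (edgeR adjusted p = 0.000731). The per-length ratio of ALDH18A1 to PYCR1 was 2.63, 1.89 and 2.57 in stiff and 1.13, 1.14 and 1.19 in soft. PRODH, which starts proline breakdown, was 2.07-fold higher, at 109.1, 112.1 and 105.9 CPM in stiff and 54.8, 54.8 and 48.2 CPM in soft (edgeR adjusted p = 3.02e-06). ALDH4A1, which completes that breakdown (16.2 ± 1.68 CPM in stiff, 17.5 ± 1.21 CPM in soft, edgeR adjusted p = 0.394), and OAT, which links ornithine to the same intermediate (97.4 ± 8.20 CPM in stiff, 90.6 ± 1.96 CPM in soft, edgeR adjusted p = 0.275), did not pass.

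Of the 18 tested genes of the proline, ornithine and arginine list, 9 fell, 3 rose (PRODH, ARG2 and SMS) and 6 did not pass; the median log2 fold change was -0.28. Without the members, 6 of 15 fell and 3 rose, beside 23.8% and 25.3% of all genes tested. ODC1, the first enzyme of polyamine synthesis (8.70 ± 1.21 CPM in stiff, 17.0 ± 2.86 CPM in soft, edgeR adjusted p = 0.000469), and SRM, which makes spermidine (18.0 ± 2.33 CPM in stiff, 34.4 ± 3.12 CPM in soft, edgeR adjusted p = 8.55e-05), were 1.95-fold and 1.91-fold lower.

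**Figure D2:**
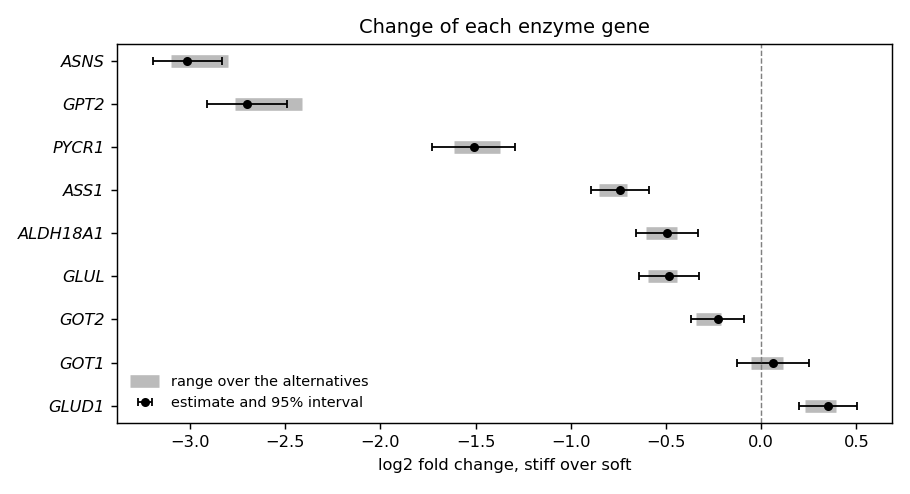
Log2 fold change (stiff over soft) of the 9 enzymes from edgeR, with the 95% interval as a thin line and the range over the alternative fits as a thick grey bar; the dashed line marks no change. ASNS at -3.01, GPT2 at -2.70 and PYCR1 at -1.51 stand apart from the other 6, which lie between -0.74 and 0.35.

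The 4 ratios between partner enzymes were each separated by condition in all 6 libraries. In an exact two-sided permutation test of the mean log2 TPM ratio, each gave p = 0.1, the smallest p that 3 against 3 libraries allow, and 0.1 after Benjamini-Hochberg adjustment over the 4 ratios, so none could pass 0.05. On the log2 scale the ratio differed between stiff and soft by -2.72 for GPT2 to GPT and -0.34 for ASS1 to ASL. It differed by 0.29 for GOT1 to GOT2 and by 1.02 for ALDH18A1 to PYCR1. The difference for GOT1 to GOT2 was 0.20 without stiff replicate 2.

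**Figure D3:**
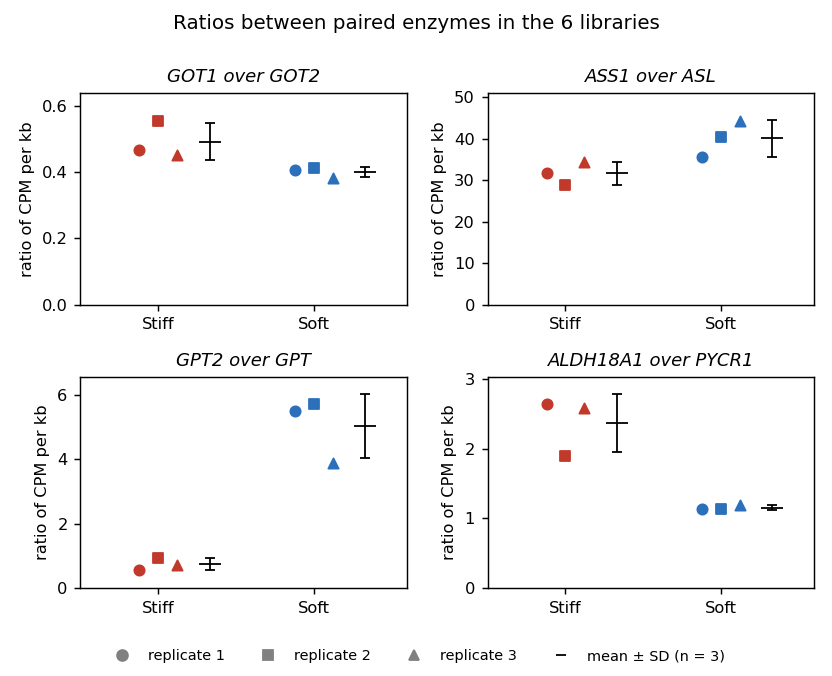
Ratio of the per-length levels of 4 enzyme pairs in the 3 stiff and 3 soft libraries (linear axes from 0, a separate scale per pair, a marker shape per replicate number, mean ± SD with n = 3 beside the points). The stiff and soft points of every pair are apart, with the widest gap by fold for GPT2 over GPT, where stiff libraries lie between 0.583 and 0.950 and soft libraries between 3.88 and 5.70.

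Levels between genes were compared as CPM per kilobase of the longest GENCODE 29 transcript. In stiff Matrigel the order was ASS1 (261.4 ± 10.5 CPM per kb), GLUL (232.7 ± 10.9), GLUD1 (69.0 ± 3.90), GOT2 (47.6 ± 1.74), GOT1 (23.4 ± 2.25), ALDH18A1 (20.2 ± 1.38), PYCR1 (8.67 ± 1.05), ASNS (5.69 ± 0.282) and GPT2 (1.87 ± 0.132 CPM per kb, SD, n = 3 for each gene). No neighbours in that order overlapped between libraries. In soft Matrigel it was ASS1 (436.6 ± 20.9 CPM per kb), GLUL (325.4 ± 18.8), GOT2 (55.8 ± 0.978), GLUD1 (54.1 ± 1.97), ASNS (45.9 ± 2.85), ALDH18A1 (28.5 ± 0.827), PYCR1 (24.7 ± 1.33), GOT1 (22.4 ± 1.13) and GPT2 (12.2 ± 0.899 CPM per kb). There GOT2 and GLUD1 overlapped, as did PYCR1 and GOT1. ASNS thus stood in place 8 of 9 in stiff and in place 5 in soft, and GPT2 was lowest in both. Per kilobase of merged exons the order in stiff was the same, though ASS1 overlapped GLUL and GOT1 overlapped ALDH18A1; in soft it changed in the middle, where GLUD1 stood above GOT2, ALDH18A1 above ASNS with overlap, and GOT1 above PYCR1.

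By the root mean square difference of log2 CPM, centred on each gene's mean, over the 6 libraries and 12428 genes of at least 5 CPM, the genes with the pattern most like ASNS were GCNT3 (0.0773), the readthrough row CZ1P-ASNS (0.0843), which shares its reads, and SLC7A11 (0.0989). GPT2 came in place 8 (0.179). The nearest to GPT2 were RDH10 (0.108), CZ1P-ASNS (0.114) and LGALS9 (0.121), and the nearest to PYCR1 were PTGES2 (0.0236), STEAP1 (0.0596) and PHGDH (0.0644). With a single contrast among 6 libraries, genes of similar fold change score as alike.

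Of 19 tested genes for carriers of these amino acids across membranes, 11 fell, 4 rose (SLC1A4, SLC38A2, SLC38A5 and SLC36A4) and 4 did not pass; the median log2 fold change was -0.44. Of all genes tested, 23.8% fell and 25.3% rose. The broad amino acid importer SLC6A14 fell to 1.34 ± 0.0678 CPM in stiff, against 14.2 ± 0.593 CPM in soft (10.6-fold, edgeR adjusted p = 6.29e-08). SLC7A11, the cystine and glutamate exchanger, fell to 3.83 ± 0.222 CPM in stiff, against 30.1 ± 1.29 CPM in soft (7.85-fold, edgeR adjusted p = 3.47e-08). SLC7A5, which trades glutamine for large neutral amino acids (817 ± 61.8 CPM in stiff, 2138 ± 111 CPM in soft), and its heavy chain SLC3A2 (312.1 ± 26.5 CPM in stiff, 697.2 ± 52.5 CPM in soft) were 2.62-fold and 2.23-fold lower (edgeR adjusted p = 7.51e-07 and 3.57e-06).

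In the list of amino acid response genes, 24 of 28 tested fell, 2 rose (DDIT4 and CEBPB) and 2 did not pass (ATF3 and CTH); their median log2 fold change was -0.92. Of all genes tested, 23.8% fell and 25.3% rose. The response list was assembled with earlier results of these data known, so its direction is not independent evidence. The count of higher genes was 1 when any soft library was left out. ATF4 RNA itself was 1.28-fold lower, at 346.8, 419.9 and 353.6 CPM in stiff and 474.8, 499.4 and 462.7 CPM in soft (edgeR adjusted p = 0.0054). Translation of ATF4, the step that GCN2 raises, was not measured. STC2, a secreted glycoprotein (10.1 ± 1.34 CPM in stiff, 118.7 ± 13.2 CPM in soft, 11.7-fold lower), CHAC1, which degrades glutathione (1.81 ± 0.207 CPM in stiff, 24.1 ± 2.30 CPM in soft, 13.3-fold lower), and WARS1, the tryptophan tRNA synthetase (96.1 ± 7.63 CPM in stiff, 488.4 ± 32.3 CPM in soft, 5.08-fold lower), had the smallest p beside PSAT1. The letters TGATGNAA stood in the promoter windows of 6 of the 25 response genes with a window (24%), against 4.46% of all genes with a window. These were CHAC1, ATF3, CEBPG, AARS1, GARS1 and FGF21. Of them, ATF3 did not pass the test and FGF21 was below the filter on low counts. The genes were listed for this response, and the element is known from the same response, so this share is not independent evidence either.

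**Figure D4:**
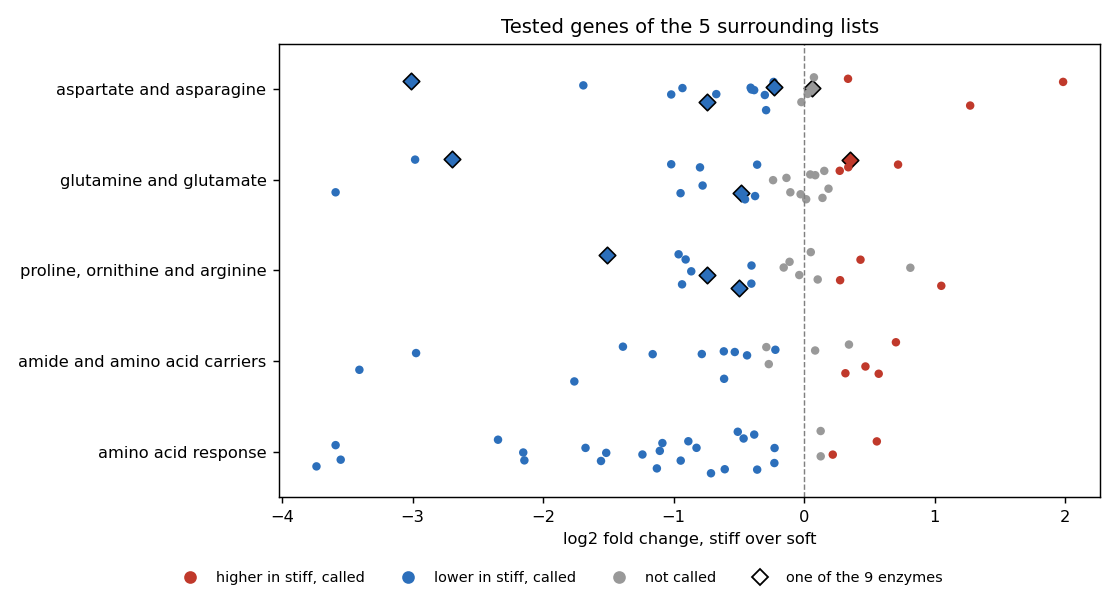
Log2 fold change (stiff over soft) of every tested gene in 5 lists of related genes, a point per gene, red where called higher in stiff, blue where called lower and grey where not called, with diamonds for the 9 enzymes and a dashed line at no change. The list medians, not drawn, lie below 0 in all 5 lists, from -0.92 for amino acid response genes to -0.135 for glutamine and glutamate genes.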

How the data were processed

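Polyadenylated RNA of 6 libraries was sequenced as read pairs of 61 bp with a kit that marks strand, per the labels' protocols. The submitters' processing notes name STAR 2.6.1e, featureCounts 1.6.2, cutadapt 1.9.1, Trim Galore 0.4.2 and FastQC 0.11.7, and the build hg38. The sources used here do not give the annotation, the strand setting or the treatment of multiply matched reads. The deposited gene counts are whole fragments per gene symbol, not normalized. The deposited TPM values follow lengths that grow with the number of transcripts: over 6672 genes, counts per TPM and kilobase were 7.65 times higher at 10 RefSeq transcripts than at 1. TPM were therefore used for changes within a gene, and CPM per kb of GENCODE 29 transcripts, a choice made after seeing the data, for levels between genes.

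Counts were tested with edgeR 4.0.16 (TMM, default filter, quasi-likelihood F test, no covariate) in R 4.3.3, with Benjamini-Hochberg adjustment over 18676 genes and a threshold of 0.05. CPM are mean ± SD of 3 libraries. Alternatives were DESeq2 1.42.0, limma 3.58.1 on log2 TPM (pseudocounts 1 and 0.1), other scaling and count filters, a threshold of 0.01, a block on the replicate number, and leaving out each library; GLUD1 summed with GLUD2 was added after seeing the data. The edgeR script was checked on simulated counts with few changed genes, the same dispersion for every gene and no outlying library. That check does not cover data such as these, where 49.1% of genes passed and stiff replicate 2 stood apart. Named genes were the members, the 4 smallest p among other genes of each list, and isozyme partners; some genes and ratios this takes are not reported here. Overlaps of at least 10% of exons in GENCODE 29 are named. The members and lists were chosen with earlier results of these data known.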

Additional observations from a re-analysis of the deposited data

How the results depend on the processing

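ASNS, GPT2, PYCR1, ASS1, ALDH18A1 and GLUL stayed lower and past the threshold in every alternative run; the log2 fold change of ASNS ranged from -3.10 to -2.80 and that of GPT2 from -2.76 to -2.41. With limma on log2(TPM + 1), log2(TPM + 0.1) or log2(TPM + 1) without the filter, the number of member enzymes called higher was 0, and 2880, 2831 and 3138 genes in all were higher; on log2(TPM + 0.1) the median gene shifted by -0.11. Under these 3 settings 1 glutamine and glutamate gene and 1 response gene were higher, and without the filter 2 carriers were; the cause was not tested. Response genes called higher were also 1 with library size only and 1 at a threshold of 0.01, where 8 aspartate and asparagine genes were lower and 2 glutamine and glutamate genes higher. Adding 1 to TPM made the log2 ratio difference -2.37 for GPT2 to GPT, since it shrinks ratios of low values. Leaving out each library in turn gave 2 to 6 glutamine and glutamate genes and 1 to 2 response genes higher, 6 to 7 members lower and 1 member higher, and 3746 to 5379 genes higher and 3410 to 5224 lower in all.

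Signs turned only for genes that did not pass in either setting. GOT1 was -0.0523, -0.0527 and -0.0523 in the 3 limma settings and -0.0193 (without stiff replicate 2) to 0.1126 with each library left out. GPT was -0.0397, -0.0710 and -0.0397 with limma and -0.1141 (without stiff replicate 1) to 0.2926 with each library left out. GLUD2 was -0.0827, -0.0841 and -0.0827 with limma, -0.0089 with library size only, and -0.0696 (without stiff replicate 1) to 0.2020 (without stiff replicate 2) with each library left out, being -0.0008 without stiff replicate 3. OAT was -0.0087, -0.0092 and -0.0087 with limma.

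Same-numbered libraries deviated together weakly (r = 0.0733, 0.216 and 0.05), and differently numbered ones gave r from -0.164 to 0.093. These values do not settle whether the numbers pair the libraries, and the main fit did not pair them. With the replicate number as a block, 5167 genes were higher and 5039 lower, and member calls stayed at 1 higher and 7 lower. The ratio differences cannot change under such a block, since the mean of paired differences equals the difference of the group means. Not every library correlated best with its own number. GPT, with few fragments, limits its ratio by depth.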
